A study of Mus musculus with 6 samples.

Results

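The 41 genes described here encode the machinery that copies chromosomal DNA: origin licensing factors, the replicative helicase and its activators, the polymerases, the sliding clamp and its loader, single-strand binding proteins, Okazaki fragment enzymes, and factors that restore chromatin or guard the fork. They were listed by gene symbol, with earlier results of these data known, and each is 1 of the 49492 rows of the deposited count table. All 41 passed the low-count filter that left 15186 genes for testing. RNA was measured by sequencing in 3 libraries of NIK-CD4Cre-OT-I mice (KO, replicates 4 to 6) and 3 libraries of Wild Type-OT-I mice (WT, replicates 1 to 3). In every library the cells were splenic naive CD8 T cells from animals of the C57/BL6 background aged 6 to 8 weeks. All carried OT-I, a transgenic T cell receptor specific for an ovalbumin peptide. All cells were stimulated for 24 hours with anti-CD3 fixed to the plate and soluble anti-CD28, each at 1 µg/ml, so an unstimulated state is not analysed here. NIK is the kinase encoded by Map3k14, and Cre driven by Cd4 sequences acts from the thymus onward in the T cell lineage. The labels name no Cre in the WT mice. Whether separate mice gave the libraries is not stated, so the p-values below measure the spread between these libraries, which may be technical.

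Replication starts in G1, when ORC, Cdc6 and Cdt1 load the MCM2-7 ring onto origins. At S phase entry Cdc45 and the GINS complex turn that ring into a moving helicase. Primase and polymerase alpha lay down primers, polymerases delta and epsilon extend them on the PCNA clamp, and flap removal and ligation join the lagging strand. Many of these genes are transcribed at the G1/S boundary under E2F factors, and naive T cells switch them on before their first division after antigen receptor stimulation.

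Sequences around the transcription start were searched for E2F and other motifs. Whether such motifs bear on the levels of the 41 genes in these libraries was not tested. RefSeq promoters on GRCm38.p6, from 250 bases before to 50 bases after the start, were found for 32 of the 41 genes, with 37 starts. The searched E2F letters were TTTCCCGC, TTTCGCGC, TTTGCCGC and TTTGGCGC, on either strand. At least 1 of these stood in 15 of the 37 promoters (40.5%), each of a different gene. The share was 4.0% of the 12566 promoters of tested genes and 2.3% of all 32851 promoters in the table. The windows below show 8 of the matches, from genes of several roles. Each reads 5′ to 3′ on the strand of its gene, with the match in capitals.
Orc1: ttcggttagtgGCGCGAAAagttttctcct
Cdc6: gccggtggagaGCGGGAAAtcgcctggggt
Mcm7: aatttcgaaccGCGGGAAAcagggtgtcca
Gins3: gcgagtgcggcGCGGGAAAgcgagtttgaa
Pola1: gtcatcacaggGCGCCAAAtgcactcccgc
Rfc3: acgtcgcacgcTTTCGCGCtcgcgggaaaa
2810417H13Rik: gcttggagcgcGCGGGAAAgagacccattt
Uhrf1: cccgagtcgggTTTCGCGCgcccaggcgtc

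The Orc1 window lies at chr4:108579416-108579445 on the plus strand, with its match beginning 27 bases before the start. The Cdc6 window is at chr11:98908002-98908031 (plus) and the Mcm7 window at chr5:138172030-138172059 (minus). Gins3 has its window at chr8:95633507-95633536 (plus), Pola1 at chrX:93632275-93632304 (minus) and Rfc3 at chr5:151651200-151651229 (minus). The Rfc3 window also holds a second match, gcgggaaa, left in lower case. The 2810417H13Rik window is at chr9:65890307-65890336 (plus), with the match beginning 5 bases before the start and running across it, and the Uhrf1 window is at chr17:56304117-56304146 (plus).

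Mcm5 and Mcm6 carried overlapping matches on opposite strands, and their 250 bases before the start are shown whole for that reason. The Mcm5 stretch is chr8:75109259-75109508 (plus strand) and the Mcm6 stretch is chr1:128359706-128359955 (minus strand). Capitals again mark the E2F letters.
Mcm5: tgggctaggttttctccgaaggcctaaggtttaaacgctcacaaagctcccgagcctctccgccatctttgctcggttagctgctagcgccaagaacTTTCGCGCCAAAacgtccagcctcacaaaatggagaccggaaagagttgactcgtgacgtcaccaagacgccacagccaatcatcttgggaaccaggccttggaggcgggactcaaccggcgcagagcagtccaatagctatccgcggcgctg
Mcm6: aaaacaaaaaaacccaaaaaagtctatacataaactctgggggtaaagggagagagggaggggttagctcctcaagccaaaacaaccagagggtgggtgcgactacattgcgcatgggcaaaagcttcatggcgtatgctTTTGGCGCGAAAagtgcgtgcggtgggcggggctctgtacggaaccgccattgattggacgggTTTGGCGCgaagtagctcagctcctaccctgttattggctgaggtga

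The other genes with a match were Cdt1, Mcm3, Pold1, Lig1 and Clspn. The promoter of Pcna held none of these letters in this window, which says nothing of E2F binding there. A CCAAT box (CCAAT) was in 67.6% of member promoters, against 37.5% of the promoters of tested genes. The GC box GGGCGG stood in 70.3%, against 61.3%, at a median GC content of 61.3% in member promoters, against 60.7%. The E-box CACGTG was in 16.2%, against 9.9%, and the CHR element TTTGAA in 10.8%, against 12.0%. The NF-kB consensus was in 2.7%, against 5.2%. These matches describe letters in a window and were not tested for binding.

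The libraries held 41311346 to 47851445 counts in KO and 45012963 to 46548251 in WT. At these depths the limit that a count of 0 allows was 0.0627 to 0.0722 CPM, and every member was far above it. CPM are the deposited counts divided by library size in units of 1000000 reads, scaled by TMM factors, which correct for differences in composition between libraries. Summed levels of marker lists use library size alone, without the TMM factors. Map3k14 had 50.7, 64.5 and 54.6 CPM in the KO libraries, against 53.6, 65.5 and 65.3 CPM in the WT libraries, and the groups overlapped. The labels do not give the deleted stretch of Map3k14, so its total count does not check them. Summed levels of 10 T cell markers were 2548 to 2670 CPM in KO and 2421 to 2571 CPM in WT. The 10 B cell markers summed to 36.8, 37.8 and 49.6 CPM in KO and to 29.1, 94.8 and 59.1 CPM in WT, and all 10 were detected. Macrophage, monocyte and dendritic markers summed to 15.1 to 27.0 CPM in KO and 15.0 to 19.7 CPM in WT, and the CD4 T cell list to 11.2 to 17.0 CPM in KO and 13.4 to 27.2 CPM in WT. Neutrophil, NK cell and erythroid or platelet markers summed to at most 3.61 CPM in KO and 4.30 CPM in WT, with Elane and Gp9 at 0 counts in every library.

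Between genotypes, none of the 41 replication genes differed beyond the spread between libraries. With edgeR's quasi-likelihood test and Benjamini-Hochberg adjustment at 0.05, 0 of 41 members passed, where 0.00659% of all tested genes passed. At an unadjusted p under 0.05 the count was also 0 of 41, against 7.26% of tested genes, and DESeq2 called 0 of 41, against 0.66% of the genes it tested. Limma-voom called none of them, and 1 gene in all. The KO and WT libraries overlapped for all 41 genes, while they did not overlap for 12.8% of tested genes. The direction was nearly uniform: 40 of 41 log2 fold changes of KO over WT were positive, against 52.4% of tested genes. Their median was 0.11, against 0.0071 over all tested genes, and they ran from -0.03 for Pold1 to 0.25 for 2810417H13Rik. The members varied together over the 6 libraries, with a median pairwise correlation of 0.946, so these directions are not 41 separate observations. Without KO replicate 4, 23 of 41 were positive. In bulk RNA, a different share of cells in S phase and a different amount of RNA per cell cannot be told apart.

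**Figure D1:**
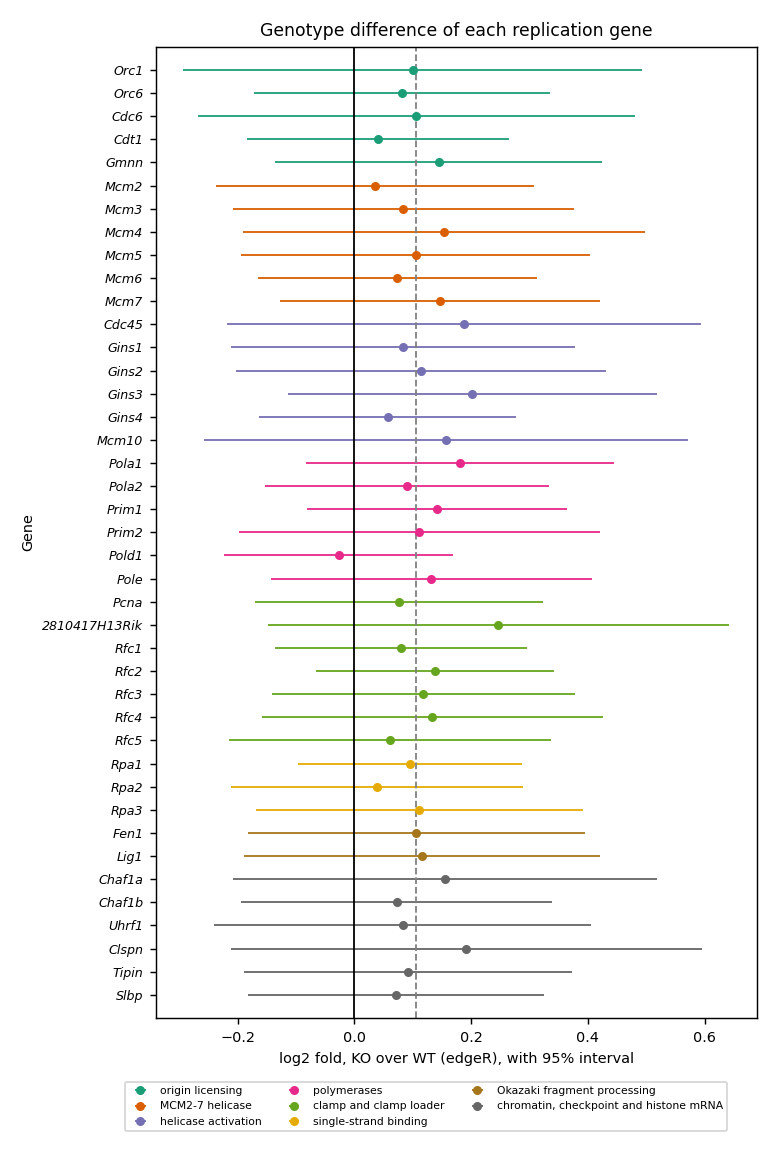
Log2 fold change of KO over WT for each of the 41 replication genes, with 95% intervals from edgeR; colours give the roles, the solid line marks 0 and the dashed line the members' median of 0.11. Every interval crosses 0, and the points lie right of 0 for 40 of the 41 genes.

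With 3 libraries a group, standard errors of the log2 fold change ran from 0.08 to 0.18 with a median of 0.12. The 95% interval of the fold lay inside 1.5-fold in either direction for 38 members and inside 2-fold for all 41. The lowest bound was 0.816-fold (Orc1) and the highest was 1.56-fold (2810417H13Rik).

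The 5 origin licensing genes had log2 fold changes of 0.04 to 0.14, and none passed the test. Orc1, the largest ATPase subunit of the origin recognition complex, had 57.5, 41.5 and 44.6 CPM in KO replicates 4, 5 and 6, against 54.7, 39.6 and 39.8 CPM in WT replicates 1, 2 and 3. Cdc6, which closes the loading complex on the origin, had 114, 77.6 and 87.6 CPM in the KO libraries, against 101, 78.2 and 80.0 CPM in the WT libraries. In both genes 1 library of each genotype was high, KO replicate 4 and WT replicate 1, and the groups overlapped. The log2 fold change was 0.10 ± 0.17 (SE) for Orc1 and 0.11 ± 0.16 for Cdc6, with adjusted p of 0.90 and 0.89 in edgeR's quasi-likelihood test with Benjamini-Hochberg adjustment. Orc6, another subunit of the complex, stood at 62.2 ± 4.83 CPM in KO and 58.8 ± 8.17 CPM in WT (SD, n = 3 each).

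Cdt1, which delivers the MCM ring, had 125, 105 and 104 CPM in the KO libraries, against 120, 102 and 103 CPM in the WT libraries. Gmnn, or geminin, which binds Cdt1 and blocks a second round of loading, had 55.6, 44.9 and 49.4 CPM in KO, against 52.4, 39.7 and 43.6 CPM in WT. The groups overlapped for both genes, with log2 fold changes of 0.04 ± 0.10 and 0.14 ± 0.12. The Cdt1 to Gmnn ratio of CPM, which is not length-corrected, was 2.25, 2.34 and 2.10 in KO libraries and 2.29, 2.57 and 2.35 in WT libraries. It too overlapped between genotypes.

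The 6 subunits of the MCM2-7 helicase were among the most abundant members and had log2 fold changes of 0.04 to 0.15, none past the test. Mcm2 had 429, 332 and 360 CPM in the KO libraries, against 412, 333 and 348 CPM in the WT libraries. Mcm5 had 549, 439 and 444 CPM in KO, against 516, 395 and 420 CPM in WT. In each case KO replicate 4 and WT replicate 1 stood above the rest. The log2 fold change was 0.04 ± 0.12 for Mcm2 and 0.11 ± 0.13 for Mcm5, and adjusted p was 0.95 and 0.85 in edgeR's test. Mcm3 averaged 561 ± 74.4 CPM in KO and 529 ± 71.0 CPM in WT, and Mcm4 averaged 456 ± 66.9 CPM in KO and 410 ± 71.9 CPM in WT (SD, n = 3 each). Mcm6 averaged 583 ± 55.8 CPM in KO and 554 ± 65.2 CPM in WT, and Mcm7 averaged 466 ± 44.8 CPM in KO and 421 ± 62.2 CPM in WT. The ring holds its subunits in equal number, and the CPM ratio of Mcm2 to Mcm5 was 0.756 to 0.811 in KO libraries and 0.798 to 0.845 in WT libraries.

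Among the 6 genes that turn the loaded ring into an active helicase, Cdc45 varied most. It had 105, 80.5 and 88.6 CPM in the KO libraries, against 102, 66.0 and 73.1 CPM in the WT libraries. The highest library was 1.59 times the lowest, the widest range of any member, and the log2 fold change was 0.19 ± 0.17 (edgeR's quasi-likelihood test, adjusted p 0.80). The GINS complex joins Cdc45 on the ring, and its subunit Gins2 had 50.4, 41.1 and 39.1 CPM in KO, against 47.3, 36.3 and 37.0 CPM in WT. Gins3, the least abundant member per kb, had 23.0, 18.2 and 20.3 CPM in KO, against 21.0, 15.3 and 17.2 CPM in WT. Its log2 fold change was 0.20 ± 0.13 and the groups overlapped through WT replicate 1.

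Gins1 averaged 22.6 ± 1.73 CPM in KO and 21.3 ± 3.60 CPM in WT, and Mcm10, which helps Cdc45 join the ring, averaged 112 ± 20.1 CPM in KO and 100 ± 21.6 CPM in WT. Gins4 was the exception to the shared pattern: it had 42.5, 43.8 and 40.0 CPM in the KO libraries, against 46.2, 36.1 and 39.1 CPM in the WT libraries. KO replicate 4 was raised less there, and KO replicate 5 was the second highest library.

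Of the 6 polymerase and primase genes, 5 had positive log2 fold changes of 0.09 to 0.18 and Pold1 had -0.03. Pola1, the catalytic subunit of polymerase alpha, had 139, 115 and 125 CPM in the KO libraries, against 129, 100 and 105 CPM in the WT libraries. This was the smallest p among the 41 members, with a log2 fold change of 0.18 ± 0.11, and edgeR's quasi-likelihood test gave it an unadjusted p of 0.148 and an adjusted p of 0.73. Pold1, the catalytic subunit of polymerase delta, had 284, 236 and 248 CPM in KO, against 282, 246 and 254 CPM in WT. It was the member whose libraries differed least, with a highest value 1.20 times the lowest.

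Pole, the catalytic subunit of the leading-strand polymerase epsilon, had 277, 229 and 234 CPM in KO, against 262, 203 and 210 CPM in WT, with a log2 fold change of 0.13 ± 0.12. Only WT replicate 1 reached the KO values. The ratio of Pola1 to Pole in CPM was 0.501, 0.501 and 0.536 in the KO libraries and 0.493, 0.493 and 0.498 in the WT libraries. The KO ratios lay above the WT ratios without overlap, at 0.501 against 0.498 where they came closest, and the difference was not tested. The other ratios given here overlapped between genotypes. Of single tested genes, 12.8% did not overlap, and no such share was computed for ratios. Pola2 averaged 138 ± 13.4 CPM in KO and 130 ± 15.8 CPM in WT. The primase subunit Prim1 had 86.3 ± 7.73 CPM in KO and 78.2 ± 8.50 CPM in WT, and Prim2 had 61.0 ± 8.34 CPM in KO and 56.5 ± 8.33 CPM in WT.

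The 7 genes of the clamp and its loader had log2 fold changes of 0.06 to 0.25. Pcna, the sliding clamp, had 502, 413 and 432 CPM in the KO libraries, against 484, 398 and 396 CPM in the WT libraries, a log2 fold change of 0.08 ± 0.10. The row of the processed pseudogene Pcna-ps2 held 55 to 101 counts per library and that of Pcna-ps1 held 0, so a few Pcna reads may be split. The gene 2810417H13Rik, listed in the gene-name table as Pclaf and encoding the PCNA-associated factor that binds the clamp, had the highest fold change of the 41. It had 153, 132 and 142 CPM in KO, against 156, 99.7 and 105 CPM in WT.

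The 3 KO values of 2810417H13Rik lay close together, and WT replicate 1 lay above all of them while the other WT libraries lay below. In edgeR's quasi-likelihood test the log2 fold change was 0.25 ± 0.17 and the adjusted p 0.75. Its ratio to Pcna in CPM was 0.305, 0.321 and 0.327 in KO libraries, against 0.322, 0.251 and 0.264 in WT libraries. The ratio in WT replicate 1 lay within the KO range and those in WT replicates 2 and 3 lay below it. Rfc3, a loader subunit, had 64.5, 58.8 and 64.0 CPM in KO, against 68.1, 52.0 and 52.5 CPM in WT, the same arrangement on a smaller scale. Rfc1, Rfc2, Rfc4 and Rfc5, the other loader genes, had log2 fold changes of 0.08, 0.14, 0.13 and 0.06.

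The single-strand binding complex RPA coats unwound DNA. Rpa2 had 104, 88.3 and 86.5 CPM in the KO libraries, against 102, 80.7 and 88.5 CPM in the WT libraries, with a log2 fold change of 0.04 ± 0.11. Rpa1, the large DNA-binding subunit, averaged 245 ± 17.3 CPM in KO and 230 ± 22.0 CPM in WT, and Rpa3, the smallest, 25.6 ± 1.60 CPM in KO and 23.7 ± 3.94 CPM in WT. All 3 overlapped between genotypes.

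For Okazaki fragments, Fen1 removes the displaced flap and Lig1 seals the nick. Fen1 had 180, 143 and 148 CPM in KO, against 170, 132 and 136 CPM in WT. Lig1 had 299, 247 and 248 CPM in KO, against 292, 219 and 223 CPM in WT. In both genes the 6 libraries formed the same arrangement, with 1 KO and 1 WT library high and the other WT libraries lowest. Their log2 fold changes were 0.11 ± 0.12 and 0.12 ± 0.13.

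The last 6 genes act behind or beside the fork, and their log2 fold changes ran from 0.07 to 0.19. Chaf1a, the large subunit of the CAF-1 histone chaperone that deposits histones on new DNA, had 146, 118 and 120 CPM in the KO libraries, against 142, 96.2 and 106 CPM in the WT libraries. Its ratio to its partner Chaf1b was 2.08, 2.06 and 1.95 in KO libraries, against 2.06, 1.78 and 1.88 in WT libraries. Chaf1b itself averaged 62.8 ± 6.69 CPM in KO and 59.7 ± 7.96 CPM in WT.

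Uhrf1, which reads hemimethylated DNA and brings the maintenance methyltransferase to it, had 572, 430 and 446 CPM in KO, against 528, 411 and 428 CPM in WT. Clspn, the claspin adaptor that passes the replication stress signal to the kinase CHK1, had 116, 90.4 and 93.1 CPM in KO, against 111, 73.9 and 77.6 CPM in WT, with a log2 fold change of 0.19 ± 0.17. Tipin, a fork protection factor, averaged 89.7 ± 9.90 CPM in KO and 84.2 ± 12.0 CPM in WT. Slbp, which binds the stem-loop of histone mRNAs, had 156, 120 and 130 CPM in KO, against 142, 122 and 122 CPM in WT, so its lowest library was a KO library.

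**Figure D2:**
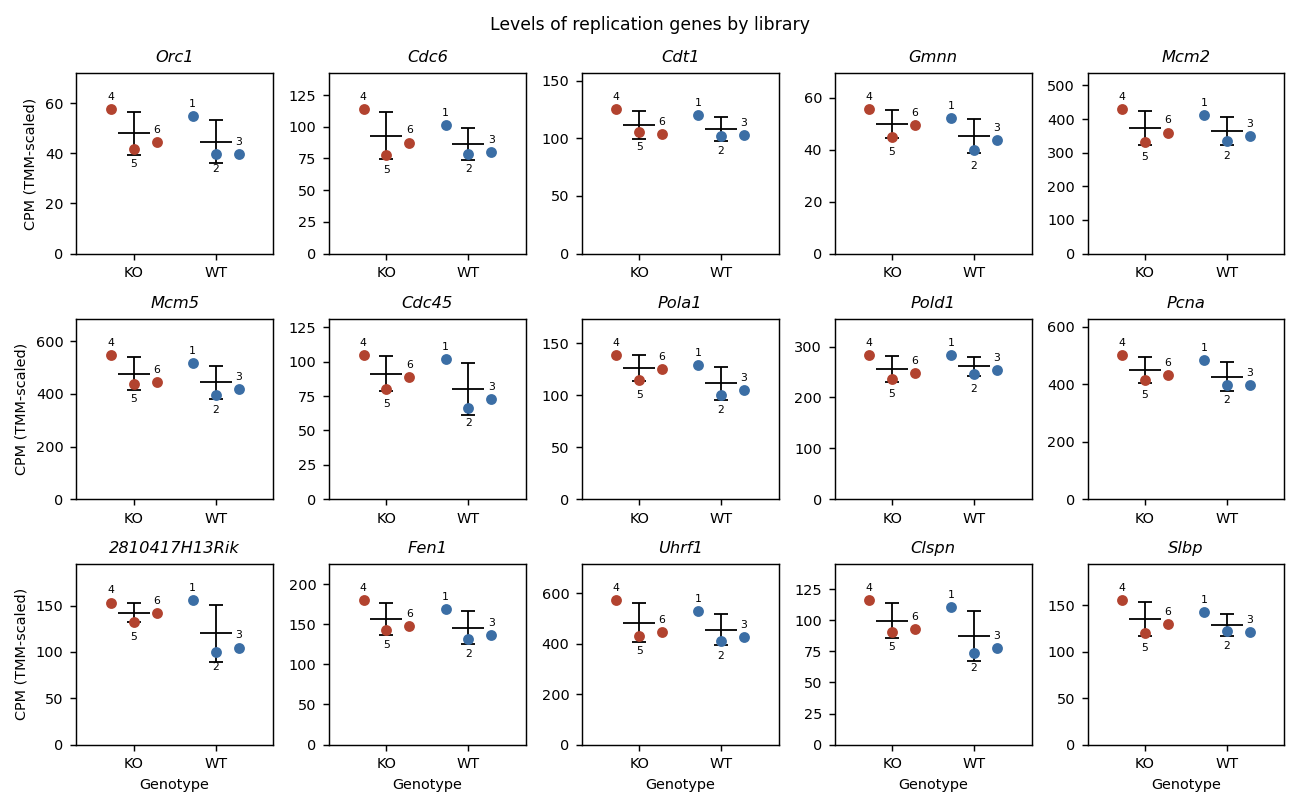
CPM of 15 replication genes in each library, KO left of WT in every panel; the numeral beside a point is the replicate number, and the bars give the mean and SD of 3 libraries. KO replicate 4 and WT replicate 1 are the 2 highest points in each of the 15 panels, and the genotypes overlap in all of them.

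Most of the spread among the 6 libraries was common to the replication genes, and the genotypes overlapped in it. KO replicate 4 and WT replicate 1 were the 2 highest libraries for 40 of the 41 genes, Gins4 being the exception. KO replicate 4 was the highest library for 35 genes and WT replicate 1 for the other 6. WT replicate 2 was lowest for 35 genes, KO replicate 5 for 4 (Cdc6, Mcm2, Pold1 and Slbp) and WT replicate 3 for Pcna and Rpa3. The members took 0.837, 0.682 and 0.710% of all counts in the KO libraries, and 0.797, 0.619 and 0.645% in the WT libraries.

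A score was computed for each library as the mean, over the 41 genes, of log2 CPM minus the mean of the 6 libraries. It was 0.23, -0.06 and 0.0064 in KO replicates 4, 5 and 6, and 0.17, -0.21 and -0.14 in WT replicates 1, 2 and 3. The 2 genotypes overlapped through WT replicate 1. Each gene's values followed this score closely: with a slope fitted per gene, the score took up 93.8% of the members' variation over libraries, and with the same slope for all genes 88.5%. The score is made from the same genes, so these shares describe how alike they are. Slopes were highest for Cdc45 and Clspn (1.52 each), Mcm10 (1.51) and 2810417H13Rik (1.49), and lowest for Pold1 (0.54), Gins4 (0.56), Rpa1 (0.69) and Cdt1 (0.70).

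The same libraries therefore differed more for Cdc45, Clspn, Mcm10 and 2810417H13Rik than for Pold1, Gins4, Rpa1 and Cdt1. The highest library exceeded the lowest by a median factor of 1.36 over the 41 genes, from 1.20 for Pold1 to 1.59 for Cdc45. Among the 7344 tested genes at or above the lowest member's level, the median factor was 1.16, and 13.2% of those genes reached the members' median. The 15 genes with an E2F match in the promoter had a median factor of 1.39 and the 17 without it 1.30. The median log2 fold changes of KO over WT were 0.11 and 0.09. The fold changes overlapped, at -0.03 to 0.25 with a match and 0.04 to 0.19 without it, and neither difference was tested.

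**Figure D3:**
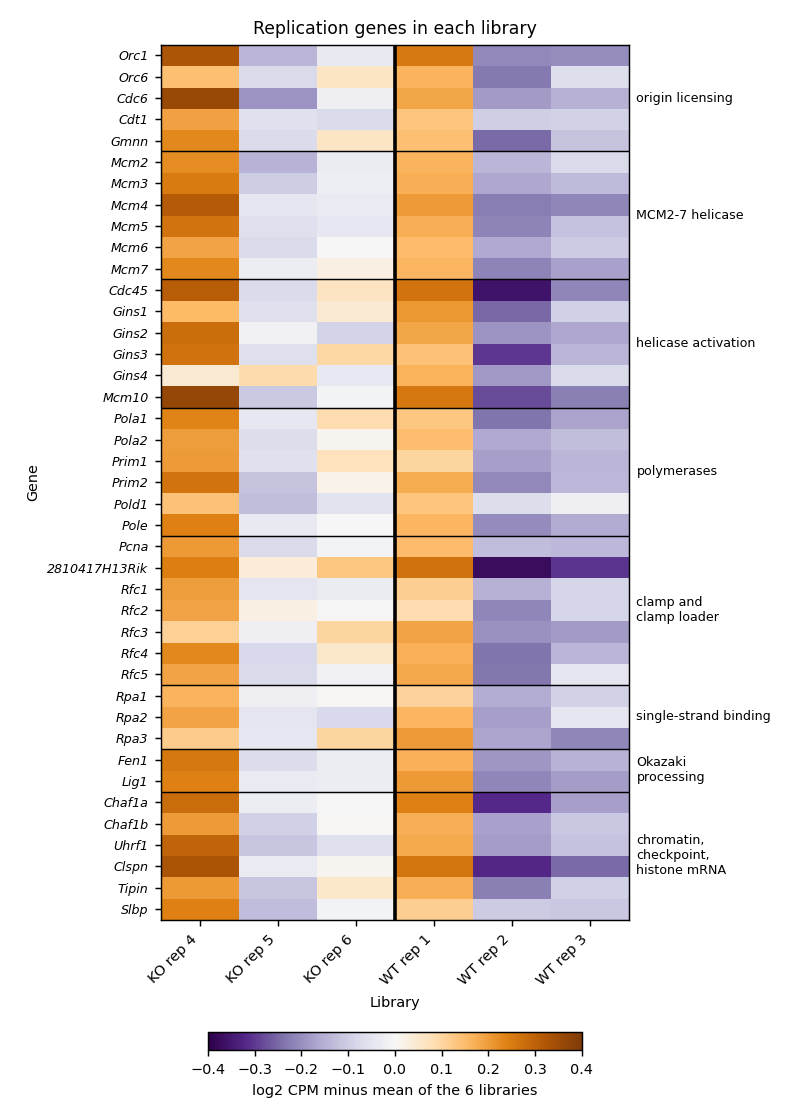
Each row is a replication gene, grouped by role, and each column a library, KO left of WT; colour is log2 CPM minus the gene's mean over the 6 libraries. The columns of KO replicate 4 and WT replicate 1 are high for nearly all rows, and WT replicate 2 has the lowest values for 35 of the 41 genes.

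Because 1 library of each genotype stood apart, the comparison was repeated without them. WT replicate 1 was the highest WT library for all 41 members, so leaving it out moves their fold changes up by construction, and the counts without it are descriptions only. Leaving out WT replicate 1, 33 of 41 members had every KO library above both remaining WT libraries, against 17.7% of tested genes. All 41 log2 fold changes were then positive, against 52.8% of tested genes, with a median of 0.23. At an unadjusted p under 0.05, 20 of 41 were higher in KO, against 7.58% of tested genes. With Benjamini-Hochberg adjustment 1 member passed in edgeR's quasi-likelihood test, 2810417H13Rik, against 0.334% of tested genes called higher. Its log2 fold change was 0.48 ± 0.07 and its adjusted p was 0.043, with 3 KO and 2 WT libraries.

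Leaving out KO replicate 4 alone had the opposite effect: the median log2 fold change was 0.011 and 23 of 41 were positive. With both high libraries left out, a choice made after seeing the data, 40 of 41 log2 fold changes were positive, against 50.7% of tested genes, Pold1 being the exception, and the median was 0.12. Both libraries were picked for the values of these same genes, so the counts and p-values of that fit are descriptions only. In that fit 33 members had both KO libraries above both WT libraries, against 25.5% of tested genes. Of the 41, 18 were higher in KO at an unadjusted p under 0.05, against 9.31% of tested genes. Only 2810417H13Rik passed with Benjamini-Hochberg adjustment in edgeR's quasi-likelihood test, at a log2 fold change of 0.41 and an adjusted p of 0.036, against 0.828% of tested genes called higher. Clspn was next among the genes named here, at 0.27 with an adjusted p of 0.057. Over the 6 fits that each left out 1 library, 20 members had a positive log2 fold change every time.

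Levels compared between genes need a length scale, and CPM per kb of annotated exon (GENCODE M21) was used. Pcna was highest, at 187 ± 19.5 CPM per kb in KO and 178 ± 21.0 CPM per kb in WT, and Gins3 lowest, at 7.56 ± 0.89 CPM per kb in KO and 6.58 ± 1.06 CPM per kb in WT. Mcm3, Mcm6, Mcm4, Mcm5, Uhrf1 and Mcm7 followed Pcna, while Mcm2 stood lower, below Fen1, Lig1 and Pold1. Over all libraries Mcm3 averaged 145, Mcm6 122, Mcm4 121, Mcm5 115, Mcm7 100 and Mcm2 53.1 CPM per kb. Mcm6, Mcm4 and Mcm5 differed by less than the SD between libraries of a genotype.

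The place of Mcm2 below Fen1, Lig1 and Pold1 depended on the exon length used, but its place as the lowest MCM2-7 subunit did not. Its annotated exons joined cover 6956 bases while its longest transcript has 3494. With the transcript length Mcm2 averaged 106 CPM per kb, above Lig1 at 79.5, Pold1 at 73.9 and Fen1 at 63.9. It was still the lowest MCM2-7 subunit, below Mcm4 at 121 and Mcm5 at 136. For 14 of the 41 genes the joined exons exceeded the longest transcript by more than 1.5 times. The GINS subunits, which act in equal number, ranged from 7.07 (Gins3) to 30.6 (Gins4) CPM per kb. Among polymerase genes, Pold1 at 53.2 CPM per kb stood above Pole at 21.1, Pola2 at 16.2 and Pola1 at 13.5. With the longest transcript Pold1 was again the highest of these, at 73.9, but Pola2 at 46.6 stood above Pole at 32.9 and Pola1 at 22.2.

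**Figure D4:**
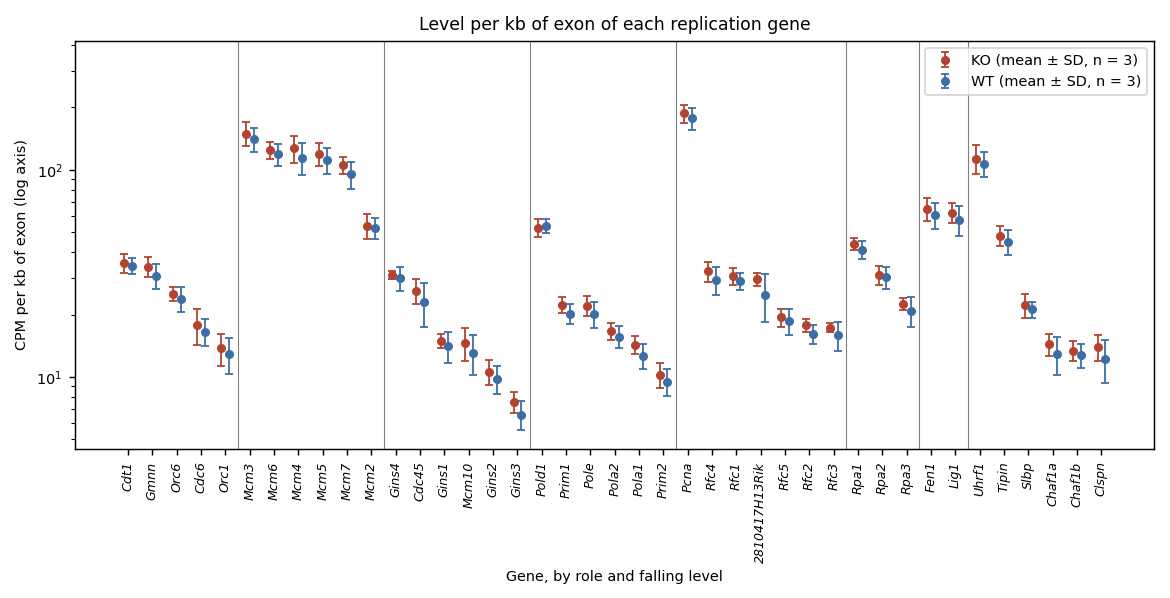
CPM per kb of exon (log axis) for each replication gene, ordered by role and falling level, as mean and SD of 3 KO libraries (left point of each pair) and 3 WT libraries. Pcna is the highest at 187 in KO and 178 in WT, and Gins3 the lowest.

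Genes that act with the replication machinery were given the same description. None of 38 other replication factors passed the test (27 positive, median log2 fold change 0.07). Donson, a fork factor, had the smallest p among them, at 50.5, 45.6 and 47.3 CPM in KO libraries, against 47.2, 42.0 and 40.5 CPM in WT libraries, with a log2 fold change of 0.14 ± 0.07. Of 24 G1/S entry and E2F genes 0 passed (19 positive, median 0.11). The smallest p there was that of Rbl1, the p107 pocket protein, at 108, 108 and 109 CPM in KO, against 102, 95.1 and 95.4 CPM in WT.

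At an unadjusted p under 0.05, 2 of the 24 G1/S entry and E2F genes were higher and 1 was lower. Over all tested genes the share was 7.26%, both directions together. Rbl1 and Tfdp2, a dimer partner of E2F, were the higher genes, and Cdk6, a G1 kinase, the lower. Their adjusted p were 0.61, 0.67 and 0.68 in edgeR's quasi-likelihood test with Benjamini-Hochberg adjustment. The KO and WT libraries did not overlap for 3 of the 24 genes, Rbl1 among them, against 12.8% of tested genes. For Rbl1, WT replicate 1 was not raised to the KO level as it was for the replication genes. Of 16 genes of nucleotide supply 0 passed (12 positive, median 0.04). Tk1, thymidine kinase, had the smallest p there, at 70.3, 58.9 and 57.7 CPM in KO, against 63.7, 45.3 and 47.0 CPM in WT.

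Mitotic genes, which act after replication, followed the same libraries with a wider range. All 24 had positive log2 fold changes with a median of 0.21, and 0 passed. Their library scores were 0.24, -0.0079 and 0.12 in KO replicates 4, 5 and 6, and 0.28, -0.36 and -0.26 in WT replicates 1, 2 and 3. Nuf2, a kinetochore protein, had the smallest p there, at 34.1, 29.5 and 28.6 CPM in KO, against 31.8, 20.8 and 21.9 CPM in WT.

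As a mean, the 12 quiescence genes stood the other way round in the libraries that were high for replication genes. Their scores were -0.23 in KO replicate 4 and -0.17 in WT replicate 1. The scores of KO replicates 5 and 6 were 0.13 and 0.17, and those of WT replicates 2 and 3 were 0.05 and 0.04. Not every gene of the list followed this mean: Cdkn2c was highest in WT replicate 1, at 15.5 CPM. None of the 12 passed the test, 7 were positive and the median was 0.02. The smallest p was that of Tcf7, the TCF-1 factor of naive and memory T cells, at a log2 fold change of 0.33 ± 0.10 (edgeR's test, adjusted p 0.60).

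As a mean, the 12 T cell activation genes did not share the libraries' order. Their scores were -0.02, -0.39 and 0.04 in the KO libraries and 0.02, 0.22 and 0.13 in the WT libraries. Their median log2 fold change was -0.21, 4 of 12 were positive and 0 passed. Single genes could differ from the mean: Cd44 had 155, 124 and 154 CPM in KO, against 173, 101 and 113 CPM in WT. Myc, a driver of growth after activation, had 812, 711 and 792 CPM in KO, against 892, 931 and 872 CPM in WT, and edgeR's quasi-likelihood test gave a log2 fold change of -0.22 ± 0.07 and an adjusted p of 0.60. B cell markers were lowest in WT replicate 1 and highest in WT replicate 2, at summed levels of 29.1 and 94.8 CPM, while the replication score was 0.17 and -0.21 in those libraries. In KO replicates 4, 5 and 6 they summed to 36.8, 37.8 and 49.6 CPM, where the replication scores were 0.23, -0.06 and 0.0064. In WT replicate 3 they summed to 59.1 CPM, at a score of -0.14. The part of any of these in the replication values was not tested.

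**Figure D5:**
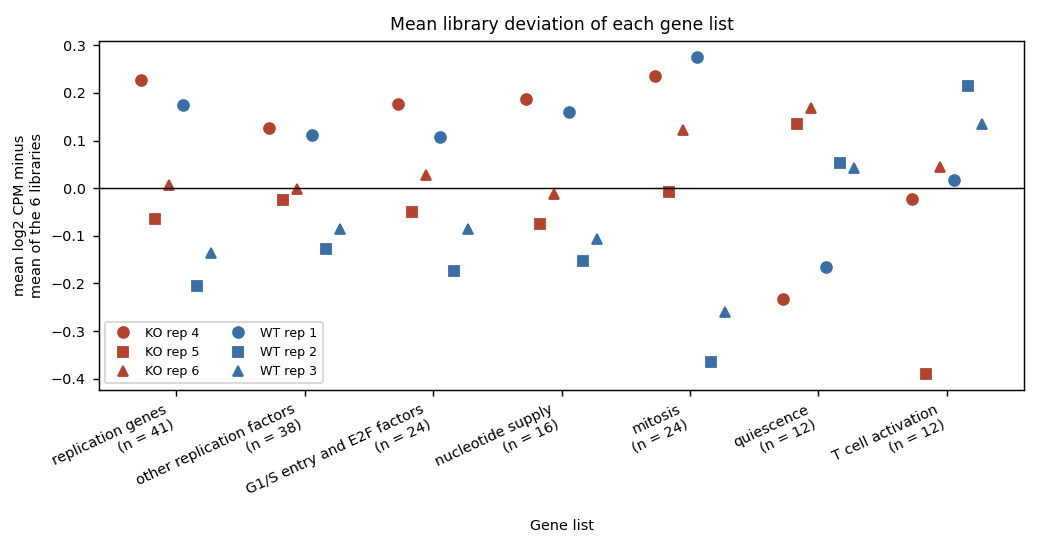
Mean over each gene list of log2 CPM minus the mean of the 6 libraries, KO libraries (left) and WT libraries (right) for each list, with the number of genes under its name. Circles, KO replicate 4 and WT replicate 1, are high for replication, G1/S, nucleotide and mitosis genes and low for quiescence genes.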

How the data were processed

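The authors deposited raw counts as 1 table of genes by libraries, whose name gives them as HTSeq counts. HTSeq 0.9.1, DESeq2 and the mm10 build are named without a role, per the submitters' processing notes. The sources used here name no aligner, annotation or strand setting. For 14 members exons overlap another gene's, among them Orc1, Mcm7, Cdc45, Gins2, Pole, Fen1, Lig1, Chaf1a and Slbp, mostly on the opposite strand; without a stated strand setting, reads from the shared stretch may belong to either gene.

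In R 4.3.3, edgeR 4.0.16 fitted the counts (robust quasi-likelihood test, TMM scaling, filterByExpr), and p-values were adjusted by Benjamini-Hochberg over all 15186 tested genes. DESeq2 1.42.0 and limma-voom 3.58.1 were alternatives. The fits were tested on simulated data, with changed genes drawn from all tested genes and not from the members. There edgeR called 53.7% of the genes set to differ 1.5-fold and 67.2% of those set to differ 2-fold. Scores used log2 of CPM plus a pseudocount of 0.5, and the limit for a count of 0 was 3 counts, which covers counting error only. No library was counted as a duplicate, since all pairs differed beyond sampling noise (mean chi-square per gene 21.2 to 58.0 over genes with at least 200 counts). By this measure KO replicate 4 was closer to WT replicate 1 (21.2) than to KO replicates 5 (32.2) and 6 (37.4). WT replicates 2 and 3 were also close (21.2). Coordinates and exon lengths came from GENCODE M21 (GRCm38, the mm10 assembly), matched by symbol for 40 members and by an older symbol for 1; promoters came from RefSeq on GRCm38.p6.

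The members and lists were chosen with earlier results of these data known. Members shown in every library were 20 named for their roles and those with extreme fold changes, p or level per kb; from each list the gene with the smallest p was named, and Gins4, Tfdp2 and Cdk6 were added after their values were seen.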

Additional observations from a re-analysis of the deposited data

How the results depend on the processing

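The members' median log2 fold change stayed positive, and 0 of 41 members were called, under RLE and upper-quartile scaling, 2 other low-count filters, DESeq2, limma-voom and a fit without robust estimation. The number of all genes called was 1 in the reported fit, 10 with no low-count filter and 96 with DESeq2. Leaving out libraries moved the results more. All genes called ran from 1 to 221 (119 without WT replicate 1), all genes at an unadjusted p under 0.05 from 562 to 2771, members called from 0 to 1, members at an unadjusted p under 0.05 from 0 to 20, positive members from 23 to 41, and members whose groups did not overlap from 0 to 33. Among the members named by rule, the log2 fold changes of KO over WT that changed sign when a library was left out ran from -0.053 to 0.27 (Orc1), -0.065 to 0.23 (Cdc6), -0.052 to 0.12 (Cdt1), -0.075 to 0.13 (Mcm2), -0.0074 to 0.23 (Mcm5), -0.0047 to 0.25 (Gins2), -0.011 to 0.18 (Pcna), -0.051 to 0.14 (Rpa2), -0.0035 to 0.23 (Fen1), -0.058 to 0.20 (Uhrf1), -0.041 to 0.15 (Slbp) and -0.11 to 0.035 (Pold1). For 11 of these 12 genes the change came without KO replicate 4. Mcm2 (-0.024) and Rpa2 (-0.036) also changed sign without WT replicate 2, and Pold1 did so without KO replicate 5 (0.028) and without WT replicate 1 (0.035). Over all 41 members, 20 were positive whichever library was left out, and the others changed sign. The level of Pcna was 288 CPM per kb with the longest transcript, since that length is shorter. No paired analysis was made because the labels name no pairs. KO replicates are numbered 4 to 6 and WT replicates 1 to 3, which does not show whether pairs or batches existed. With 3 libraries a group, the 95% interval of a member's fold reached as high as 1.56-fold (2810417H13Rik).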
